A study of Homo sapiens with 21 samples.

Results

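The integrated stress response (ISR) joins many kinds of cell stress to a common change in translation and transcription, and 10 genes that carry its output and its feedback are described here among the 23368 genes listed. They are EIF2AK3 and EIF2AK4, PPP1R15A and PPP1R15B, TRIB3, CHAC1, ADM2, STC2, FGF21 and VLDLR, taken by their symbols. Each has 1 row, and all 10 varied between libraries, so all were tested. No measured value was used to choose them for this comparison, although earlier results of these data were known when the list was drawn up.

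In this response, kinases that sense stress phosphorylate the translation factor eIF2 on its alpha subunit. General protein synthesis then slows while translation of the transcription factor ATF4 increases, and ATF4, with partners such as CHOP (encoded by DDIT3), turns on genes for amino acid supply, redox balance and secreted signals. EIF2AK3 encodes PERK, the kinase that responds to unfolded protein in the endoplasmic reticulum, and EIF2AK4 encodes GCN2, the kinase that responds to uncharged tRNA. PPP1R15A encodes GADD34 and PPP1R15B encodes CReP, which guide protein phosphatase 1 to phosphorylated eIF2 and so reset translation. GADD34 is the inducible form and CReP the constitutive one. TRIB3 is a pseudokinase that is induced by ATF4 and CHOP and restrains them, CHAC1 degrades glutathione, ADM2 and FGF21 are secreted peptide hormones, STC2 is a secreted glycoprotein, and VLDLR is a cell-surface receptor for lipoproteins and reelin.

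RNA was sequenced from hTERT-HPNE, an immortalized nontransformed human pancreatic cell line with growth medium that held puromycin and EGF, in 7 groups of 3 biological replicates. Untreated cells were collected at 0 h. The other groups were collected at 4, 8 or 24 h after 300 μM H2O2, which imposes oxidative stress, or after 400 ng/ml neocarzinostatin (NCS), a radiomimetic drug that breaks both DNA strands. The medium was exchanged for fresh medium when a treatment began. Untreated cells from 4, 8 and 24 h were not analysed here, so the effects of a treatment and of time in fresh medium cannot be told apart, and every comparison with untreated cells shares the same 3 control libraries. The values are rLog values, a log2 scale normalized for library size on which differences are shrunken, most strongly for genes with few reads. A gene passed the test where its adjusted p-value in limma was under 0.05, with Benjamini-Hochberg adjustment over the 19694 genes tested, and it passed the study's limit if its absolute log2 difference was also over 1. With 3 libraries against 3, a two-sided exact permutation test of a single gene cannot go below p = 0.1.

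As a check of the cell type, VIM, FN1 and COL1A1, markers of mesenchymal cells, had medians of 17.05, 20.08 and 17.96, and NES, a marker of progenitors, one of 12.06. Of 8 duct markers, KRT18, KRT8, KRT7, MUC1 and SOX9 had medians of 11.65, 7.90, 6.93, 6.10 and 6.07, and KRT19, CFTR and EPCAM had medians of 0.60, -1.34 and -1.76. Of the acinar markers, CEL had a median of 3.86 and CPA1 one of -2.18. PDX1, PRSS1, PTF1A and INS were listed at 0 in every library. Without counts, a value of 0 or below does not show that a gene was not expressed. PTPRC and PECAM1, of leukocytes and endothelium, had medians of 0.93 and 2.06. Of 7 tested markers of acinar, endocrine, leukocyte and endothelial cells, PECAM1 and CHGA were higher in H2O2 at 4 h, by 0.33 and 0.02, and the sum of the 7 values was -1.13 to -0.96 in untreated cells and -0.64 to -0.50 at that time. CEL, which did not pass, differed by 0.13 at that time. A sum of log2 values is not an amount of RNA or of cells. The part of these markers in the results was not tested. In bulk RNA, fewer cells that express a gene and less RNA of that gene per cell cannot be told apart. Library medians lay between 7.14 and 7.19.

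Replicate 2 of H2O2 at 8 h stood apart from its group. It was below both other replicates for 9 of the 10 genes and for 46.8% of all genes tested. That share of all genes was not particular to it, at 47.0% in untreated replicate 3 and 45.2% in NCS 8 h replicate 3. It had the largest root mean square distance from its group of all 21 libraries (0.098, against 0.056 to 0.080 in the others). Relative to the mean of replicates 1 and 3, it was lower by 0.56 for CHAC1, 0.51 for TRIB3, 0.48 for ADM2 and 0.28 for VLDLR, whereas replicates 1 and 3 differed by at most 0.08 for any of the 10 genes. Differences from untreated cells at 8 h after H2O2 are therefore also given without it for all of the 10 genes but FGF21. Other results that use this group, among them the gene lists and the correlations, keep it unless stated.

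The promoters of 4 of the genes are shown because they hold a motif tied to this response and because the genes behaved unlike each other. The sequences are the 250 bases before the RefSeq start on GRCh38.p14, written 5′ to 3′ on the strand of the gene. Capitals mark TGATGNAA, a site for ATF4 with a C/EBP partner (opposite strand TTNCATCA), or, in PPP1R15A, TGACGTCA, the cyclic AMP response element, which reads the same on both strands. The windows are chr19:48872171-48872420 (plus strand) for PPP1R15A, chr1:204411818-204412067 (minus strand) for PPP1R15B, chr15:40953221-40953470 (plus strand) for CHAC1 and chr19:48755274-48755523 (plus strand) for FGF21.
PPP1R15A: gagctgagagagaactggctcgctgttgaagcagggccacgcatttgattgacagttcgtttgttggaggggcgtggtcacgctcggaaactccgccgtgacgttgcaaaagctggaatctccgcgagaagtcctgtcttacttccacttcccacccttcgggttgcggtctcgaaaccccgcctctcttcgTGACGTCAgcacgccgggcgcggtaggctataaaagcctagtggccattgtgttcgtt
PPP1R15B: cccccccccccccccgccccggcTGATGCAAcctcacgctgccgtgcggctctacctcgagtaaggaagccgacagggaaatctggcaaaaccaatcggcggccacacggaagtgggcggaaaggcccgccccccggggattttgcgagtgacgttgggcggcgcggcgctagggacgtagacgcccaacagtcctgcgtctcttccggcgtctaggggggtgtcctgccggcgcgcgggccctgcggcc
CHAC1: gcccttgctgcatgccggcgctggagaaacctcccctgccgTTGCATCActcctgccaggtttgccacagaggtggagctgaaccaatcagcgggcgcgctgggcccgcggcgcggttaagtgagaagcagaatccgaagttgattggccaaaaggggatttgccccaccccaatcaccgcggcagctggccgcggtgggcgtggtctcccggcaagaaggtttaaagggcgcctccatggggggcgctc
FGF21: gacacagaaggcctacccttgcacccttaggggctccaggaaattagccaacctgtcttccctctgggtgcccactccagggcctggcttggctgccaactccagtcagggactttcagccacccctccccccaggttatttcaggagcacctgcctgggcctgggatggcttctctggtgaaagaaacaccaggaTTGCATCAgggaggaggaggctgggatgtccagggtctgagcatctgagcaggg

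Each of the 10 genes had at least 1 window of 300 bases, 250 before and 50 from the start on, and both strands were searched. TRIB3 had windows at more than 1 RefSeq start, and all were searched. The shares of all promoters used 1 window per gene. The ATF4 with C/EBP motif was in 3 of the 10, PPP1R15B (first base at -227), CHAC1 (at -209) and FGF21 (at -54), and in 3.67% of 27305 promoters of that length. The cyclic AMP response element was in 1 of the 10, PPP1R15A (at -58), against 1.98% of all promoters. The AP-1 motif TGANTCA was in 1, EIF2AK4, against 7.76%, and the antioxidant motif TGACNNNGC (opposite strand GCNNNGTCA) was in 4, TRIB3, PPP1R15A, STC2 and VLDLR, against 13.6%. No match overlapped a match of another motif. A match of letters is a description of the window and not evidence of binding. PPP1R15B, CHAC1 and FGF21 share the first motif, and their RNA changed by different amounts. CHAC1 had the largest rise of the 10 genes in H2O2 at 8 h, PPP1R15B rose little and fell back, and FGF21 stayed at the bottom of the scale. Genes without this motif also changed by different amounts, from -0.21 for EIF2AK4 to 1.99 for ADM2 in H2O2 at 8 h.

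In H2O2, 8 of the 10 genes were higher than in untreated cells at 4 h and at 8 h, and 6 were higher at 24 h. Over all genes tested, 26.2% were higher at 4 h, 18.8% at 8 h and 20.2% at 24 h. At each time 1 of the 10 was lower, EIF2AK4 at 4 and 8 h and EIF2AK3 at 24 h, beside 19.7%, 18.6% and 19.9% of all genes. The study's limit was passed by 4 of the 10 at each time, against 0.696%, 0.518% and 1.61% of all genes at the successive times. These were CHAC1, ADM2, TRIB3 and PPP1R15A at 4 h, and CHAC1, ADM2, TRIB3 and VLDLR at 8 and 24 h. The median difference of the 10 genes was 0.72, 0.68 and 0.47 in turn, while the median over all genes lay within 0.01 of 0 at each time.

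In NCS, fewer of the 10 passed at 4 and 8 h. At 4 h, limma called 0 of the 10 higher, beside 7.47% of all genes, and 1 was higher at an unadjusted p under 0.05. VLDLR, STC2 and EIF2AK4 were lower, 3 of the 10 beside 9.72% of all genes. At 8 h, 5 were higher (TRIB3, CHAC1, ADM2, PPP1R15A and EIF2AK3), beside 10.5% of all genes, and limma called 0 lower, beside 13.3%, with 0 also at an unadjusted p under 0.05. At 24 h, 8 were higher, beside 19.6%, and 1, PPP1R15B, was lower, beside 18.4%. The study's limit was passed in NCS by 0 of the 10 at 4 h and at 8 h (0 also with an unadjusted p) and by 2, ADM2 and TRIB3, at 24 h, where 0.218%, 0.340% and 1.50% of all genes passed it. The median difference of the 10 genes was -0.07, 0.07 and 0.17 at the successive times.

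**Figure D1:**
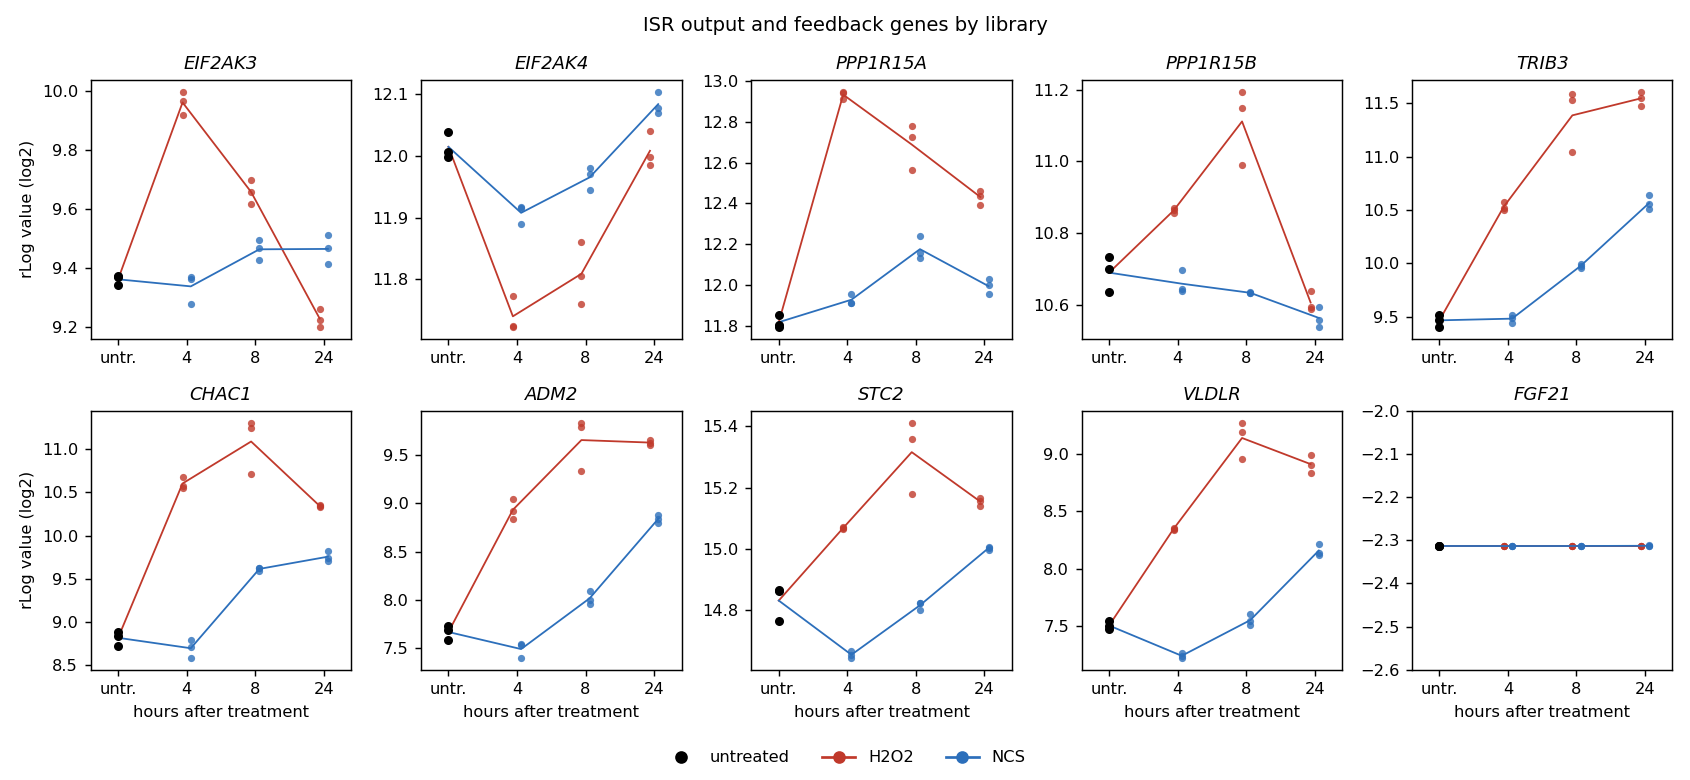
rLog values (log2) of the 10 genes in each library, with hours after treatment on an axis that is not to scale and a value axis of its own in each panel. Points are single libraries (black untreated, red H2O2, blue NCS) and lines join group means. At 4 h limma called 8 of the genes higher in H2O2 than in NCS, beside 26.3% of all genes tested. EIF2AK4 was called lower, beside 18.0%, and FGF21 is at -2.31 throughout.

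The sensor kinases moved in opposite directions at 4 and 8 h after H2O2. EIF2AK3 (PERK) read 9.37, 9.34 and 9.37 in untreated cells, 9.92, 10.00 and 9.97 at 4 h after H2O2, then 9.70, 9.62 and 9.66 at 8 h, followed by 9.22, 9.20 and 9.26 at 24 h. It was highest in every library at 4 h and by 24 h was below every untreated library. The differences from untreated cells were 0.60 (SE 0.033, adjusted p = 6.76e-11), 0.30 (adjusted p = 8.59e-07) and -0.13 (adjusted p = 0.00275) in time order. In NCS, EIF2AK3 stood at 9.37, 9.28 and 9.36 at 4 h, then 9.47, 9.43 and 9.50 at 8 h, followed by 9.51, 9.41 and 9.47 at 24 h, with differences of -0.02 (adjusted p = 0.792), 0.10 (adjusted p = 0.0294) and 0.10 (adjusted p = 0.0173). The NCS rises were small. The call at 8 h was lost with library medians aligned (0.08, adjusted p = 0.12) and without any of the untreated replicates or NCS 8 h replicate 1 or 3, and that at 24 h without untreated replicate 2 or NCS 24 h replicate 1 (adjusted p of 0.0542 to 0.122). Between treatments, PERK RNA was the higher in H2O2 at 4 h and the lower at 24 h.

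EIF2AK4 (GCN2) was lower at 4 and 8 h after H2O2. It read 12.04, 12.01 and 12.00 in untreated cells and 11.72, 11.77 and 11.72 at 4 h after H2O2, then 11.81, 11.86 and 11.76 at 8 h and 12.00, 11.99 and 12.04 at 24 h. Every library at 4 and 8 h was below every untreated library, and at 24 h the groups overlapped. The differences were -0.27 (SE 0.024, adjusted p = 2.95e-08), -0.21 (adjusted p = 1.37e-06) and -0.01 (adjusted p = 0.875). In NCS it read 11.92, 11.89 and 11.92 at 4 h, then 11.95, 11.97 and 11.98 at 8 h, followed by 12.10, 12.07 and 12.08 at 24 h. The fall in NCS at 4 h was smaller, -0.11 (adjusted p = 0.00336), and was followed by -0.05 (adjusted p = 0.16, or -0.07 and 0.0365 with library medians aligned) and 0.07 (adjusted p = 0.0269), the last of which did not pass without untreated replicate 2 or 3 or NCS 24 h replicate 1 (adjusted p of 0.0761 to 0.104).

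The phosphatase subunits differed in size and in timing. PPP1R15A (GADD34) read 11.80, 11.85 and 11.79 in untreated cells. After H2O2 it read 12.94, 12.91 and 12.95 at 4 h, then 12.78, 12.56 and 12.72 at 8 h, followed by 12.44, 12.46 and 12.39 at 24 h. It was highest at the first time and lower at each later one, without overlap between any of these groups. The differences from untreated cells were 1.12 (SE 0.041, adjusted p = 3.84e-13), 0.87 (adjusted p = 4.16e-11) and 0.61 (adjusted p = 5.08e-10). In NCS it read 11.91, 11.96 and 11.91 at 4 h, then 12.24, 12.16 and 12.13 at 8 h, followed by 11.96, 12.03 and 12.00 at 24 h. The first difference, 0.11 (adjusted p = 0.0793), missed the threshold but passed it after quantile normalization, among genes with a mean of at least 5, and in a fit of only the groups compared (adjusted p of 0.0232 to 0.0327). The next differences were 0.36 (adjusted p = 2.49e-06) and 0.18 (adjusted p = 0.00185), so the highest NCS group was that of 8 h and it lay below the lowest H2O2 group.

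PPP1R15B (CReP) read 10.73, 10.63 and 10.70 in untreated cells. After H2O2 it read 10.87, 10.86 and 10.86 at 4 h, then 11.20, 10.99 and 11.15 at 8 h, followed by 10.59, 10.59 and 10.64 at 24 h. It rose by 0.17 (SE 0.038, adjusted p = 0.0011) and 0.42 (adjusted p = 7.81e-08), and at 24 h the difference was -0.08 (adjusted p = 0.0982). That last value passed when replicate 2 of the untreated cells was left out (-0.11, adjusted p = 0.0444) and with library medians aligned (-0.10, adjusted p = 0.0337). The NCS libraries read 10.64, 10.64 and 10.70, then 10.63, 10.63 and 10.63, then 10.59, 10.54 and 10.56. It did not pass at 4 h (-0.03, adjusted p = 0.754) or 8 h (-0.06, adjusted p = 0.367) and fell by 0.13 at 24 h (adjusted p = 0.0128), a call lost without untreated replicate 1 or NCS 24 h replicate 2 (adjusted p of 0.0661 and 0.052) and after quantile normalization (-0.08, adjusted p = 0.0823). CReP RNA was thus raised by H2O2 at 4 and 8 h and not at 24 h, when GADD34 RNA was still raised.

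TRIB3, the pseudokinase that acts back on ATF4 and CHOP, had its highest H2O2 mean at 24 h with all libraries kept. It read 9.48, 9.41 and 9.52 in untreated cells, 10.50, 10.52 and 10.57 at 4 h after H2O2, then 11.53, 11.04 and 11.58 at 8 h, followed by 11.47, 11.55 and 11.61 at 24 h. All H2O2 libraries were above all untreated ones, and the H2O2 groups at 8 h and 24 h overlapped. The order of their means rested on H2O2 8 h replicate 2. Without that library, TRIB3 changed by -0.01 from 8 to 24 h (adjusted p = 0.845). The differences from untreated cells were 1.06 (SE 0.090, adjusted p = 2.31e-08), 1.92 (adjusted p = 3.98e-11) and 2.08 (adjusted p = 1.06e-12). After NCS its values were 9.44, 9.49 and 9.51 at 4 h, then 9.95, 10.00 and 9.98 at 8 h, followed by 10.50, 10.55 and 10.64 at 24 h, with differences of 0.02 (adjusted p = 0.975), 0.51 (adjusted p = 0.000291) and 1.10 (adjusted p = 1e-08). The NCS libraries at 24 h overlapped the H2O2 libraries at 4 h.

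CHAC1, which cuts glutathione and so lowers the main thiol antioxidant, showed the largest rise of the 10 genes in H2O2 at 4 h and at 8 h. It read 8.88, 8.72 and 8.84 in untreated cells, 10.56, 10.57 and 10.68 at 4 h, then 11.24, 10.72 and 11.31 at 8 h, followed by 10.34, 10.33 and 10.35 at 24 h. The 24 h libraries were below all others of the H2O2 series but above all untreated ones. The differences were 1.79 (SE 0.101, adjusted p = 1.07e-10), 2.27 (adjusted p = 2.3e-11) and 1.53 (adjusted p = 4.15e-10). The NCS libraries read 8.71, 8.58 and 8.79 at 4 h, then 9.59, 9.62 and 9.62 at 8 h, followed by 9.74, 9.82 and 9.71 at 24 h. At 4 h the NCS and untreated libraries overlapped (-0.12, adjusted p = 0.542), and the later rises were 0.80 (adjusted p = 7.67e-06) and 0.94 (adjusted p = 3.86e-07).

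Of the secreted products, ADM2, a hormone of the calcitonin family, resembled TRIB3 in its group means (Pearson r of 0.988). The change of the treatment difference from 4 to 24 h was unlike, at -0.65 for ADM2 and -0.07 for TRIB3. ADM2 read 7.73, 7.58 and 7.69 in untreated cells and 8.83, 8.92 and 9.04 at 4 h after H2O2. It then read 9.83, 9.33 and 9.79 at 8 h, followed by 9.60, 9.63 and 9.66 at 24 h. It rose by 1.26 (SE 0.092, adjusted p = 3.17e-09), 1.99 (adjusted p = 3.66e-11) and 1.96 (adjusted p = 3.16e-12). In NCS it read 7.55, 7.40 and 7.53, then 8.09, 7.96 and 8.00, then 8.80, 8.88 and 8.84. The 4 h libraries were all below the untreated ones, but the difference did not pass (-0.18, adjusted p = 0.242), and it was followed by rises of 0.35 (adjusted p = 0.00868) and 1.17 (adjusted p = 5.73e-09).

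STC2, a secreted glycoprotein that inhibits the protease PAPPA, was the gene with the highest value, above 99.7% of the genes tested by its mean rLog value, which is not corrected for gene length. It read 14.77, 14.87 and 14.86 in untreated cells, 15.06, 15.07 and 15.07 at 4 h after H2O2, then 15.36, 15.18 and 15.41 at 8 h, followed by 15.14, 15.16 and 15.17 at 24 h. Its rises were small but without overlap, 0.24 (SE 0.039, adjusted p = 6.53e-05), 0.48 (adjusted p = 2.08e-08) and 0.32 (adjusted p = 1.59e-06). After NCS its values were 14.65, 14.67 and 14.65 at 4 h, then 14.82, 14.80 and 14.83 at 8 h, followed by 15.00, 15.01 and 15.00 at 24 h. It fell by 0.18 at 4 h (adjusted p = 0.00329), was at -0.02 at 8 h (adjusted p = 0.939) and rose by 0.17 at 24 h (adjusted p = 0.00156).

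FGF21, a hormone best known from liver, was at the bottom of the scale. Its 21 values lay between -2.31348 and -2.31171, and it was 1 of 733 genes whose values were all within 0.01 of the lowest in the table, -2.31371. Its group means spanned 0.00068, and it passed in none of the 9 comparisons between conditions, with adjusted p of 0.569 to 1 in limma. With no counts to set a detection limit, these values say only that FGF21 was not detectably different from the lowest genes.

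VLDLR, the receptor, was higher at each time after H2O2 and fell in NCS before it rose. It read 7.54, 7.51 and 7.47 in untreated cells, 8.34, 8.35 and 8.36 at 4 h after H2O2, then 9.19, 8.96 and 9.27 at 8 h, followed by 8.91, 8.84 and 8.99 at 24 h. The differences were 0.84 (SE 0.059, adjusted p = 1.89e-09), 1.63 (adjusted p = 1.56e-12) and 1.41 (adjusted p = 6.52e-13). In NCS it read 7.22, 7.24 and 7.27 at 4 h, then 7.51, 7.54 and 7.61 at 8 h, followed by 8.14, 8.22 and 8.12 at 24 h. The first group lay below all untreated libraries (-0.26, adjusted p = 0.00361), the next overlapped them (0.05, adjusted p = 0.718) and the last lay above them (0.65, adjusted p = 3.72e-08).

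**Figure D2:**
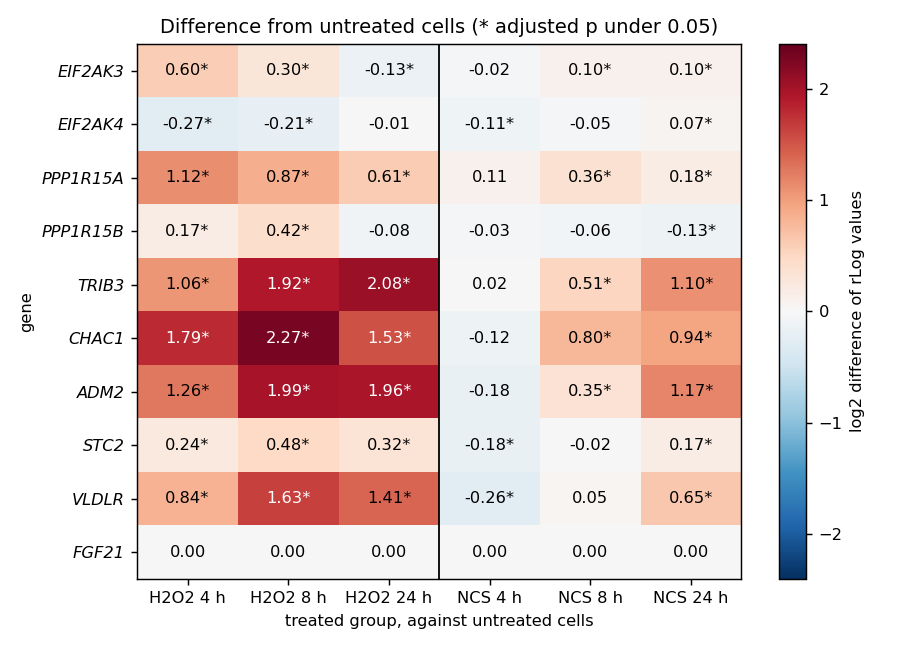
Log2 differences of rLog values from untreated cells for the 10 genes (rows) in the 6 treated groups (columns), in red for higher and blue for lower, with an asterisk where the adjusted p-value was under 0.05. The H2O2 columns hold values from -0.27 to 2.27 and the NCS columns values from -0.26 to 1.17.

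Without replicate 2 of H2O2 at 8 h, the differences from untreated cells at 8 h were 2.46 for CHAC1, 2.15 for ADM2, 2.09 for TRIB3, 1.72 for VLDLR, 0.93 for PPP1R15A, 0.55 for STC2, 0.48 for PPP1R15B, 0.32 for EIF2AK3 and -0.23 for EIF2AK4. Each was larger in size than with all 3 replicates, and 8 of the 10 genes were still called higher, 1 lower and 4 past the limit.

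The genes also differed in when they peaked within H2O2. From 4 to 8 h, 7 of the 10 were higher at the later time and 2, PPP1R15A and EIF2AK3, were lower, beside 18.0% and 27.7% of all genes tested. TRIB3 rose by 0.85 (adjusted p = 4.26e-07), VLDLR by 0.79 (adjusted p = 5.73e-09), ADM2 by 0.72 (adjusted p = 4.12e-06) and CHAC1 by 0.49 (adjusted p = 0.000651), whereas PPP1R15A fell by 0.24 (adjusted p = 8.52e-05) and EIF2AK3 by 0.30 (adjusted p = 5.43e-07). In a fit of only these groups the CHAC1 step had an adjusted p of 0.0587. Without replicate 2 of H2O2 at 8 h, 6 were higher and 2 lower over this step. The rise of EIF2AK4 (0.07, adjusted p = 0.0237) was then 0.04 with an adjusted p of 0.137. Its call was also lost in a fit of only these groups (adjusted p = 0.154) and without H2O2 4 h replicate 1 or 3 (adjusted p of 0.0822 and 0.0813).

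From 8 to 24 h in H2O2, 1 of the 10, EIF2AK4, was higher and 6 were lower, beside 19.4% and 23.2% of all genes. The falls were those of CHAC1 (-0.75, adjusted p = 7.23e-06), PPP1R15B (-0.51, adjusted p = 4.77e-09), EIF2AK3 (-0.43, adjusted p = 5.37e-09), PPP1R15A (-0.26, adjusted p = 4.76e-05), VLDLR (-0.23, adjusted p = 0.00399) and STC2 (-0.16, adjusted p = 0.00234). TRIB3 changed by 0.16 (adjusted p = 0.18) and ADM2 by -0.03 (adjusted p = 0.886). In a fit of only these groups, STC2 and VLDLR had adjusted p of 0.0863 and 0.0953, and after quantile normalization the STC2 step was -0.05 (adjusted p = 0.341). Single libraries decided the values of TRIB3 and ADM2. Without H2O2 8 h replicate 2, TRIB3 changed by -0.01 (adjusted p = 0.845) and ADM2 fell by 0.19 (adjusted p = 0.0168), and without replicate 3, TRIB3 rose by 0.26 (adjusted p = 0.0294), which made 2 genes higher.

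In NCS, 7 of the 10 rose from 4 to 8 h and limma called 0 lower (0 also at an unadjusted p under 0.05), beside 6.16% and 7.50% of all genes. CHAC1 rose the most, by 0.92 (adjusted p = 5.34e-06). The EIF2AK3 step lost its call in a fit of only these groups (adjusted p = 0.0602) and without NCS 4 h replicate 2 or NCS 8 h replicate 3 (adjusted p of 0.0913 and 0.0676). From 8 to 24 h, 5 rose and 1, PPP1R15A, fell (-0.18, adjusted p = 0.00214), beside 14.9% and 15.0% of all genes. The rises in this step were largest for ADM2 (0.82, adjusted p = 1.28e-06), VLDLR (0.61, adjusted p = 2.11e-07) and TRIB3 (0.59, adjusted p = 4.76e-05), and CHAC1 changed by 0.14 (adjusted p = 0.361, and 0.0216 in a fit of only these groups). VLDLR and STC2, which were below untreated cells at 4 h, rose at each step.

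H2O2 and NCS were compared directly at each time. At 4 h, 8 of the 10 genes were higher in H2O2 and 1, EIF2AK4, was lower, beside 26.3% and 18.0% of all genes. The limit was passed by 5 (0.574% of all genes), namely CHAC1 (1.91, SE 0.101, adjusted p = 5.31e-11), ADM2 (1.44), VLDLR (1.10), TRIB3 (1.05) and PPP1R15A (1.01). At 8 h, 8 were again higher and EIF2AK4 lower, beside 18.7% and 15.4%, and 4 passed the limit (0.162% of all genes), namely ADM2 (1.64, SE 0.092, adjusted p = 7.81e-10), VLDLR (1.59), CHAC1 (1.48) and TRIB3 (1.41). Without H2O2 8 h replicate 2 these differences were 1.80, 1.68, 1.66 and 1.58.

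At 24 h, 6 of the 10 were higher in H2O2 than in NCS and 2, EIF2AK3 and EIF2AK4, were lower, beside 11.0% and 10.9% of all genes. TRIB3 had the largest difference at this time, 0.98 (SE 0.090, adjusted p = 2.5e-07), followed by ADM2 (0.79), VLDLR (0.75), CHAC1 (0.59), PPP1R15A (0.44) and STC2 (0.15). EIF2AK3 was lower by 0.24 (adjusted p = 3.07e-05), and PPP1R15B differed by 0.04 (adjusted p = 0.527). The EIF2AK4 difference, -0.08 (adjusted p = 0.0283), lost its call without H2O2 24 h replicate 1 or 2 or NCS 24 h replicate 1 or 3 (adjusted p of 0.0554 to 0.118) and after quantile normalization (-0.05, adjusted p = 0.232). The study's limit was passed by 0 of the 10 in limma, with 0 also at an unadjusted p, beside 0.0152% of all genes. TRIB3 was past it when H2O2 24 h replicate 1 or NCS 24 h replicate 3 was left out.

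**Figure D3:**
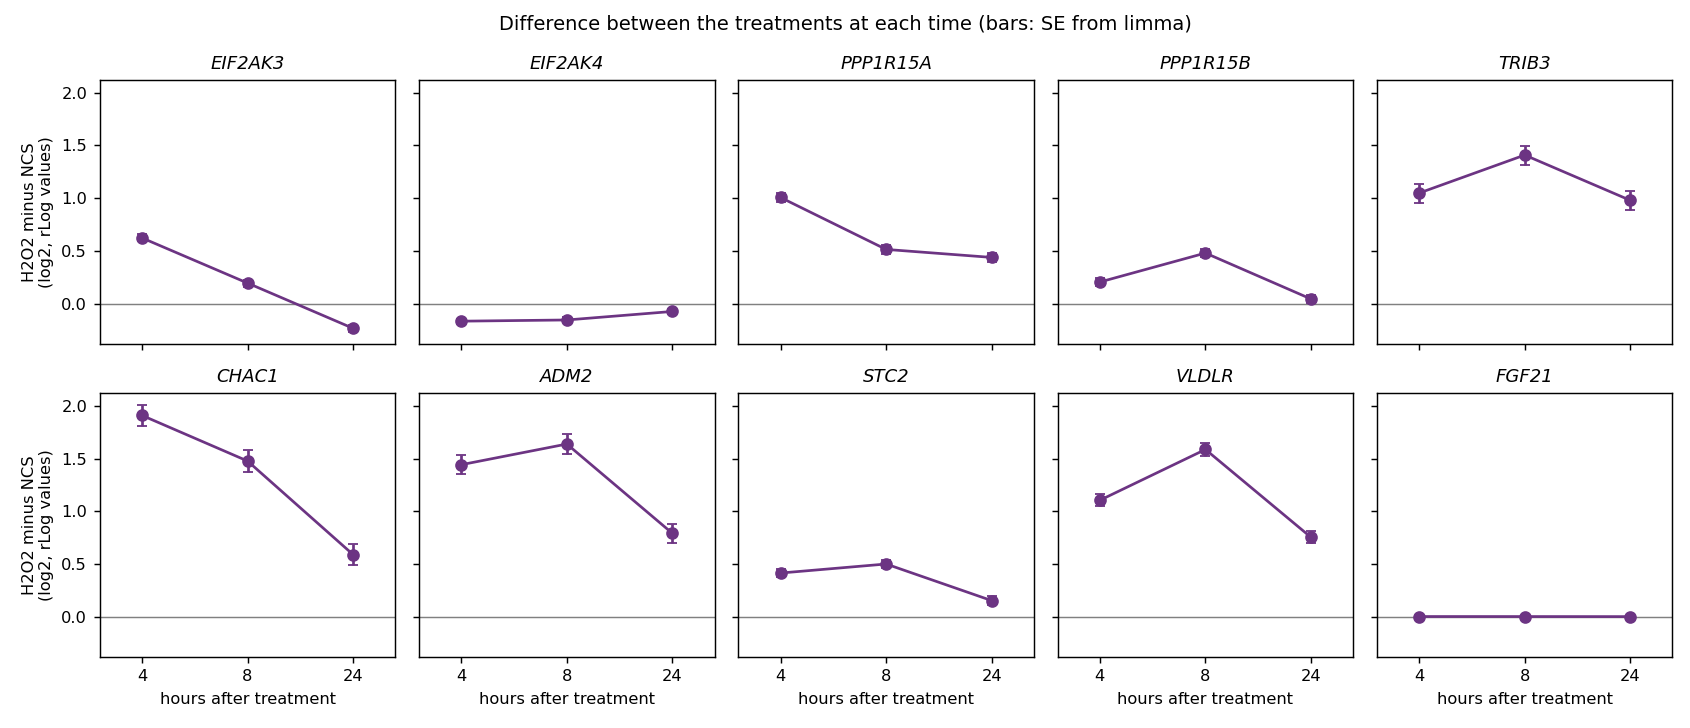
Difference between H2O2 and NCS (log2, rLog values) for each gene at 4, 8 and 24 h, with bars of 1 SE from limma and a common value axis. The difference narrowed between 4 and 24 h for CHAC1, from 1.91 to 0.59, while that of TRIB3 was 1.05 and 0.98.

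The change of the treatment difference from 4 to 24 h passed the test for 8 of the 10 genes, beside 39.4% of all genes in either direction. It was -1.32 (SE 0.143, adjusted p = 9.67e-07) for CHAC1, -0.86 (SE 0.046, adjusted p = 2.82e-10) for EIF2AK3, -0.65 for ADM2, -0.57 for PPP1R15A, -0.35 for VLDLR, -0.26 for STC2 and -0.16 for PPP1R15B, all in the direction of a smaller or reversed excess in H2O2. EIF2AK4 changed by 0.09 (adjusted p = 0.0362), a narrowing of its deficit. TRIB3 changed by -0.07 (SE 0.128, adjusted p = 0.712), and FGF21 did not pass (adjusted p = 0.553). The call of STC2 was lost after quantile normalization (-0.09, adjusted p = 0.161). The call of EIF2AK4 was lost with library medians aligned (0.07, adjusted p = 0.138) and without H2O2 4 h replicate 1 or 3, H2O2 24 h replicate 3, NCS 4 h replicate 1 or 3 or NCS 24 h replicate 2 or 3. That of PPP1R15B was lost without H2O2 24 h replicate 1 or 2, NCS 4 h replicate 1 or 2 or NCS 24 h replicate 1.

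Ordered by level, 7 of the 10 genes had their highest group mean in H2O2 at 4 or 8 h. These were EIF2AK3 and PPP1R15A at 4 h and PPP1R15B, CHAC1, ADM2, STC2 and VLDLR at 8 h. The share of all genes that were highest in these groups was not computed, so this count has no background to be read against. TRIB3 was highest in H2O2 at 24 h with all libraries kept, and EIF2AK4 and FGF21 in NCS at 24 h. Without H2O2 8 h replicate 2, TRIB3 changed by -0.01 from 8 to 24 h in H2O2, so its top rank at 24 h was lost. The top rank of ADM2 at 8 h was lost without H2O2 8 h replicate 1 or 3, where this step was 0.06 and 0.04. It was also lost after quantile normalization, where the ADM2 step was 0.006. The top groups of TRIB3 (H2O2 at 24 h and 8 h), ADM2 and VLDLR (both H2O2 at 8 h and 24 h) overlapped in their libraries, and so did NCS at 24 h and H2O2 at 4 h for TRIB3 and ADM2. At the lower end, NCS at 4 h and untreated cells overlapped for TRIB3 and CHAC1, and all neighbouring groups of FGF21 overlapped. Across the 7 group means, which share normalization and controls, TRIB3 and ADM2 had a Pearson r of 0.988, VLDLR and ADM2 0.987, and STC2 and VLDLR 0.983. EIF2AK3 and TRIB3 had an r of 0.158.

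The lists that follow are read against the shares of all genes tested. In H2O2 these were 26.2%, 18.8% and 20.2% higher and 19.7%, 18.6% and 19.9% lower at 4, 8 and 24 h, and in NCS 7.47%, 10.5% and 19.6% higher and 9.72%, 13.3% and 18.4% lower.

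Of 7 transcription factors of the response, 6 were higher in H2O2 at each time, beside 26.2%, 18.8% and 20.2% of all genes, with a median difference of 0.99, 0.97 and 0.99. In NCS, 2 were higher and 2 lower at 4 h, 3 were higher at 8 h, and 6 were higher and 1 lower at 24 h. ATF4 itself rose by 0.92, 0.97 and 0.55 in H2O2 over time, while in NCS it fell by 0.18 at 4 h, was at -0.04 at 8 h and rose by 0.21 at 24 h. DDIT3 rose by 1.45, 1.20 and 1.39 in H2O2 and by 0.83 and 0.88 at 8 and 24 h in NCS. ATF3, which stress kinases and p53 also induce, was higher in NCS already at 4 h (1.58) and rose by 3.45 in H2O2. CEBPB rose past the limit at 4 and 8 h in H2O2 (1.16 and 1.11), and NUPR1 did so at 24 h (1.49). ATF5 was the exception, at -0.09 and -0.04 and then lower by 0.32 in H2O2 at 24 h.

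Most other targets of ATF4 were higher in H2O2. Of 22, 19 were higher at 4 h after H2O2, 22 at 8 h and 21 at 24 h, when SLC7A1 was lower, against 26.2%, 18.8% and 20.2% of all genes higher. In NCS, 1 was higher and 6 were lower at 4 h, 5 higher and 1 lower at 8 h, and 18 higher and 1 lower at 24 h. Their median difference was 0.38, 0.83 and 0.71 in H2O2 and -0.06, 0.01 and 0.30 in NCS. SESN2, which p53 also induces, was the 1 gene higher in NCS at 4 h (1.10) and rose by 1.87 in H2O2. DDIT4, a brake on mTORC1, rose by 1.21, 1.89 and 1.64 in H2O2 and fell by 0.24 in NCS at 4 h. VEGFA rose by 1.29 in H2O2 at 4 h, and ASNS and PSAT1, of asparagine and serine synthesis, passed the limit from 8 h on (1.45 and 1.50 at 8 h). At 8 h MTHFD2 (1.30), SLC7A5 (1.08) and SLC3A2 (1.06) also passed it, and at 24 h PHGDH (1.08).

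Other genes of the unfolded protein response were mostly higher in H2O2 at 4 and 8 h and divided at 24 h. Of 13, 10 were higher and 1 lower at 4 h after H2O2, 12 higher and 1 lower at 8 h, and 6 higher and 6 lower at 24 h, with medians of 0.20, 0.27 and -0.01. Over all genes at 24 h, 20.2% were higher and 19.9% lower. HSPA5 (the chaperone BiP) rose by 0.92 and 1.00 and was then lower by 0.17, and HERPUD1 rose by 1.14, 0.78 and 0.27. DNAJB9 rose by 0.82, 1.08 and 0.32, ERN1, which encodes the sensor IRE1, rose by 0.72, 0.72 and 0.76, and XBP1, the factor that IRE1 activates, rose by 0.71 at 4 h. In NCS, 3 were higher and 1 lower at 4 h, 12 higher at 8 h, and 6 higher and 3 lower at 24 h, with medians of 0.02, 0.26 and 0.06.

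Of 17 genes for the other kinases, eIF2, eIF2B, the phosphatase 1 catalytic subunits and their regulators, 4 were higher and 7 lower at 4 h after H2O2, 5 and 5 at 8 h, and 5 and 6 at 24 h, all with absolute differences under 0.50. Over all genes, 26.2% were higher and 19.7% lower at 4 h. NCK1 (-0.35), EIF2AK2, which encodes the kinase PKR (-0.33), GCN1 (-0.30, listed as GCN1L1), EIF2S2 (0.28) and DNAJC3 (0.22) differed most at 4 h. In NCS, 2 were higher and 3 lower at 4 h, which became 1 and 3 at 8 h, then 4 and 5 at 24 h. The median difference lay between -0.07 and 0.01 in all 6 treated groups.

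**Figure D4:**
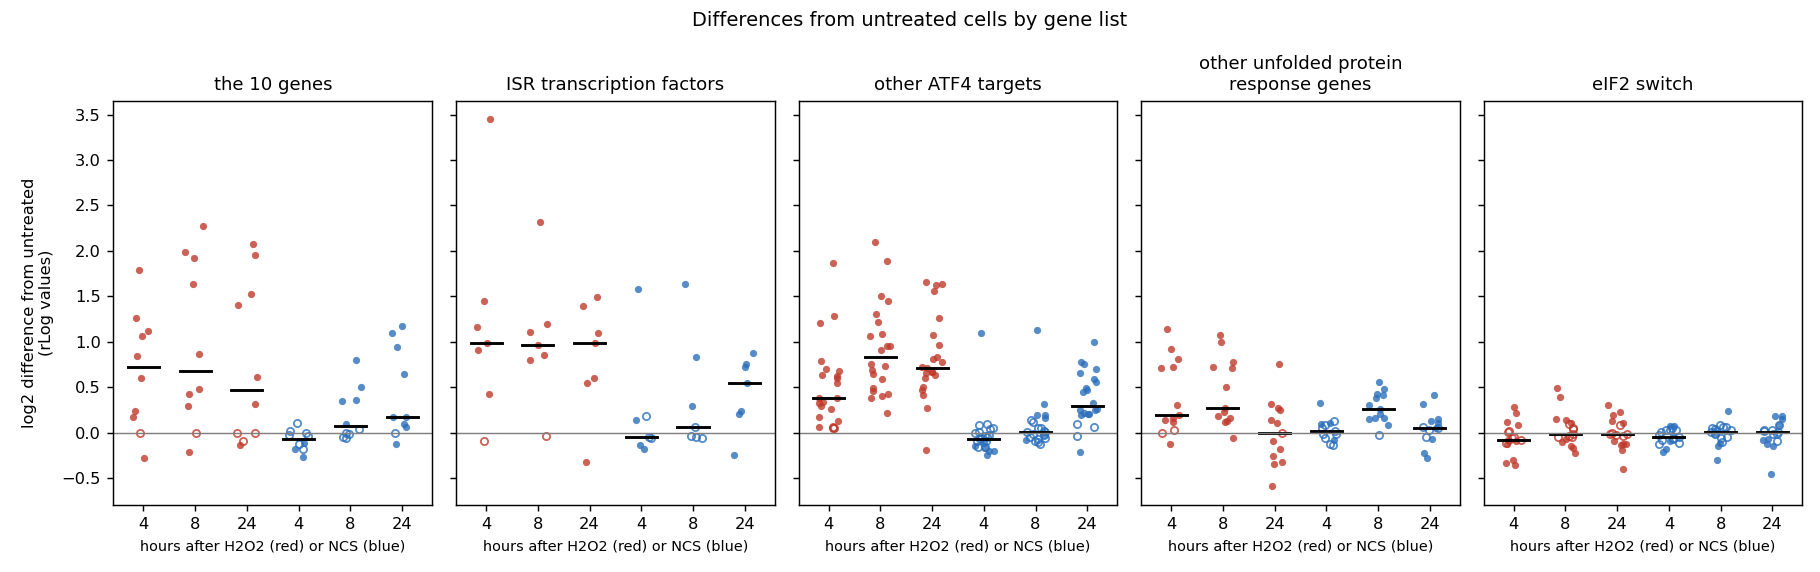
Log2 differences from untreated cells (rLog values) for each gene of 5 lists at 4, 8 and 24 h after H2O2 (red) or NCS (blue). Filled points passed the test, open points did not, and black bars are medians. The median of the other ATF4 targets is 0.83 in H2O2 at 8 h and 0.01 in NCS at 8 h, while those of the eIF2 switch lie near 0 throughout.

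Paralogs of the 10 genes moved in both directions. Of 9, 2 were higher and 5 lower at 4 h after H2O2 (median difference -0.13), 3 and 3 at 8 h, and 3 and 4 at 24 h, beside 26.2% higher and 19.7% lower of all genes at 4 h. TRIB1 rose by 1.44, 1.02 and 0.82, TRIB2 was lower by 0.66 at 4 h and higher by 0.49 at 24 h, and CHAC2, the constitutive relative of CHAC1, was lower at each time (-0.19, -0.21 and -0.47). At 4 h ADM, the relative of ADM2, was lower by 0.51, LRP8, a relative of VLDLR, was lower by 0.20, and STC1, the relative of STC2, was higher by 0.30. In NCS, 2 were higher at 4 h and 1 lower, 2 and 2 at 8 h, and 3 and 3 at 24 h. FGF19 and FGF23 were near the bottom of the scale in every library.

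Of 10 receptors and partners of the members, 9 were tested, since RAMP3 was listed at 0 in every library. In H2O2, 2 were higher and 7 did not pass at 4 h, and 2 were higher and 1 lower at 8 and at 24 h, with medians of -0.04, 0.05 and 0.01. The shares of all genes higher were 26.2%, 18.8% and 20.2%, so the counts of receptors and partners were near the background. PAPPA, the protease that STC2 inhibits, was level at 4 h (-0.06) and rose by 0.69 at 8 h and 1.80 at 24 h, and in NCS it rose by 0.77, 1.29 and 1.89. It was thus higher in NCS at 4 h, when STC2 was lower. FGFR1 rose by 0.21, 0.33 and 0.41 in H2O2. KLB, the co-receptor of FGF21, was low, with a median of 1.95, and was higher by 0.16 at 4 h after H2O2. The ADM2 receptor gene CALCRL was low, with a median of 4.74, and its differences from untreated cells stayed within 0.09. In NCS, 2 were higher and 7 did not pass at 4 h, 1 was higher and 1 lower at 8 h, and 3 were higher and 2 lower at 24 h.

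The genes whose group means most resembled those of a member were found among 3071 genes with a mean of at least 5 and a span of at least 0.5, by Pearson r over 7 group means. For TRIB3 they were ASNS, SARS and ADM2 (0.990, 0.990 and 0.988), for ADM2 TRIB3, VLDLR and DDIT4 (0.988, 0.987 and 0.986), and for VLDLR CARS, DDIT4 and ADM2 (0.994, 0.991 and 0.987). STC2 was closest to TARS (0.987), VLDLR and DDIT4. CHAC1 was closest to ULBP1 (0.979), TUBE1 and PDE4D. PPP1R15A was closest to COX19 (0.989), TES and GRPEL2, PPP1R15B to TRIM11 (0.971), SLC16A1 and LOC388796, and EIF2AK3 to FAM131B (0.975), BACH1 and LOC100506233. EIF2AK4 and FGF21 spanned less than 0.5 and were not compared.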

How the data were processed

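RNA was measured by sequencing of TruSeq Stranded mRNA libraries in 21 libraries of hTERT-HPNE cells, 3 for each of 7 groups assigned from the labels. In Galaxy, HISAT2 alignments were counted by the authors with htseq-count, and the deposited log2 values are the authors' DESeq2 rLog values. The submitters' processing notes name build hg19. Tool versions, the annotation and the strand setting of the counting are not given in the sources used here. Without counts the depth per library is unknown, so no counting interval or detection limit was computed.

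Of 23368 genes, 3674 with a constant value were left out, and 19694 were tested without further normalization in limma 3.58.1 (R 4.3.3), fitted jointly over the 7 groups with a mean-variance trend. P-values measure the spread between the biological replicates. There were 9 comparisons between conditions, 4 between times and 1 of the change in treatment difference, each adjusted by the Benjamini-Hochberg method over all genes tested. The limit of 1 was set by the authors on DESeq2 fold changes, which are not rLog differences. On simulated data for H2O2 at 4 h, 99 of 100 genes changed by 0.5 and 100 of 100 changed by 1 were recovered, and 3.86% of called genes were unchanged. The simulation used independent normal noise and changed 200 genes, all with a mean over 5. It therefore does not give the recovery of smaller differences, or the false share where as many genes change as in the measured data.

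The 10 genes and all gene lists were chosen with earlier results of these data known. All 10 are named, together with list genes past the study's limit, up to 5 others per list with the largest difference in H2O2 at 4 h, and the 3 genes with the nearest group means. A gene that made up a count alone (SLC7A1, ATF5) was named after its values were seen. Older symbols were matched for GCN1 (GCN1L1). Promoter sequences came from RefSeq on GRCh38.p14 and were read with Python 3.11.15. Alternatives were aligned library medians, quantile normalization, a mean of at least 5, no filter, no trend, a fit restricted to the groups compared, the replicate block, a limit of 0.58 and each library left out in turn. For steps between times, these alternatives were chosen after the data were seen.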

Additional observations from a re-analysis of the deposited data

Results flagged for a closer look

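For 8 of the 10 genes, the gap between the treatments was not the same at 24 h as at 4 h by limma's test of that change itself, with adjusted p-values over all genes tested. Values are log2 differences, H2O2 minus NCS at 24 h less that at 4 h, and 39.4% of all genes tested passed. CHAC1, which degrades glutathione, had -1.32, with 1.91 at 4 h and 0.59 at 24 h (adjusted p = 9.67e-07). EIF2AK3, the kinase PERK, had -0.86, with the sign turning from 0.62 to -0.24 (adjusted p = 2.82e-10). ADM2 had -0.65 (adjusted p = 0.000615) and PPP1R15A -0.57 (adjusted p = 5.06e-07). VLDLR had -0.35 (adjusted p = 0.00251) and STC2 -0.26 (adjusted p = 0.000963). PPP1R15B had -0.16 (adjusted p = 0.0244). EIF2AK4, which was lower in H2O2 at both times, had a value of 0.092 (adjusted p = 0.0362). Calls were lost for EIF2AK4 in 8 alternatives (adjusted p of 0.0658 to 0.138), for PPP1R15B without any of 5 libraries (adjusted p of 0.0506 to 0.0613) and for STC2 after quantile normalization (-0.09, adjusted p = 0.161).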

How the results depend on the processing

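Calls of the large changes (CHAC1, ADM2, TRIB3, VLDLR and PPP1R15A in H2O2 against untreated cells) were on the same side of the threshold in every alternative run. Of the counts of genes called, 10 moved by over 1.5 times with a library left out and 12 under other alternatives, while 212 and 249 did not. With library medians aligned, 2 genes were lower in H2O2 at 4 h and 3 at 24 h, and 2 were lower in NCS at 8 h. FGF21 was among them each time, a gene at the bottom of the scale in every library, where aligning medians shifts a value by construction, and its difference between H2O2 and NCS at 8 h changed sign to 0.021 (adjusted p = 0.00547). Quantile normalization, a mean of at least 5 and a fit of only the groups compared each called 1 gene, PPP1R15A, higher in NCS at 4 h. Quantile normalization left 0 genes lower in NCS at 24 h (PPP1R15B, adjusted p = 0.0823) and 1 in H2O2 against NCS at 24 h. A limit of 0.58 was passed by 1 gene in NCS at 8 h, by 4 in NCS at 24 h and by 4 between treatments at 24 h. No share of all genes past 0.58, or called under the other alternatives, is given here. The counts under alternatives therefore have no background to be read against. A fit of only the groups compared called 2 genes lower in NCS from 8 to 24 h. FGF21 has no value among genes with a mean of at least 5. The cause was not tested for the other shifts. For steps between times, the alternatives were chosen after seeing the data.

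With 1 library left out at a time, the count of genes lower was 1 to 2 in H2O2 at 24 h (2 without untreated replicate 2), 0 to 1 in NCS at 24 h (0 without untreated replicate 1 or NCS 24 h replicate 2), and 1 to 2 between treatments at 24 h (1 without replicate 1 or 2 of H2O2 or replicate 1 or 3 of NCS). The count past the limit between treatments at 24 h was 0 to 1 (TRIB3, without H2O2 replicate 1 or NCS replicate 3), and that of genes higher from 8 to 24 h in H2O2 was 1 to 2 (2 without H2O2 8 h replicate 3). The other counts stayed within 1.5 times.

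The replicate numbers in the labels were not used to pair the samples. Correlations of same-numbered deviations lay between -0.113 and 0.213, and no comparison had all 3 pairs over 0.1. All 3 were positive in some, such as NCS at 24 h against untreated cells (0.0752, 0.0531 and 0.131). These correlations cannot show that the samples were unpaired. With the replicate block, 8 genes were higher in H2O2 at 4 h, as without it, and no count of the 10 genes changed. Precision is limited by 3 libraries per group, and the depth is unknown.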
